A study of Homo sapiens with 16 samples.

Results

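The clustered protocadherin genes are 53 protein-coding genes in 3 adjoining subclusters on chromosome 5, 15 of PCDHA, 16 of PCDHB and 22 of PCDHG. They were taken by symbol from the GENCODE 44 annotation, and the intervals studied were all those from 50 kb before the first gene to 50 kb after the last, at 140736136 to 141562977 of hg38. That window held 28 of the 74404 intervals in the table. By position, 18 lay within 1 kb of a protocadherin start (called promoters below), 3 between subclusters, 2 inside a subcluster, 1 on the last exon shared by the PCDHG genes, and 4 in the flank downstream of PCDHG. The rule uses position alone and no measured value.

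CUT&Tag, in which a Tn5 transposase held by an antibody cuts and tags the DNA near the antibody's target, was run on HEK293, a line of human embryonic kidney cells, in 16 libraries. All cells had the genotype eGFP-YAP, a fluorescent protein fused to the transcriptional coactivator YAP. The targets were CTCF, a DNA-binding protein that anchors chromatin loops, RAD21, a subunit of the cohesin ring, eGFP-YAP through an antibody against GFP (labelled YAP1), and H3K27ac, a histone mark of active promoters and enhancers. Each target had 2 vehicle libraries and 2 libraries of cells given sorbitol at 200 mM for 1 h, a hyperosmotic stress. The design text has the eGFP-YAP cells starved of serum for 1 h before sorbitol. The labels describe the untreated cells as harvested in parallel, whereas the column names place vehicle at an earlier time. If the column names hold, time and treatment cannot be told apart. The labels do not say whether the 2 replicates came from separate cultures, so the p-values measure only the spread between these libraries. A control with a non-specific antibody was not analysed here.

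Clustered protocadherins are cell-surface adhesion proteins, best known in neurons, where each cell uses a small and partly random choice of them as an identity code. In PCDHA and PCDHG every variable first exon has its own promoter and is spliced to constant exons shared by the subcluster, while each PCDHB gene is a single exon. CTCF and cohesin bring a chosen promoter to distant enhancers, of which HS5-1 in the gap between PCDHA and PCDHB serves PCDHA. Promoters carry a conserved sequence element with a CGCT core, and CTCF sites at promoters and enhancers lie in opposing orientations. The C-type genes PCDHAC1, PCDHAC2, PCDHGC3, PCDHGC4 and PCDHGC5 are known for steadier use, without the random choice.

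Only some of the promoters were covered. An interval lay within 1 kb of 3 of 15 PCDHA genes (PCDHA8, PCDHA10 and PCDHA11), 5 of 16 PCDHB genes (PCDHB8, PCDHB11, PCDHB13, PCDHB14 and PCDHB15) and 10 of 22 PCDHG genes (PCDHGB1, PCDHGB2, PCDHGB3, PCDHGA7, PCDHGB5, PCDHGB7, PCDHGA11, PCDHGA12, PCDHGC3 and PCDHGC4). That is 18 of 53 genes, or 34.0%, and the count was the same within 2 kb. PCDHA1 to PCDHA7 had none, nor had the C-type genes PCDHAC1, PCDHAC2 and PCDHGC5. A missing interval says only that the shared set holds none there. How peaks were pooled into that set is not given in the sources used here. The interval sequences of PCDHB8 and PCDHB13 were near copies of each other (95.5% over 336 bp), and those of PCDHGB5 and PCDHGB7 had copies near PCDHGB4 and PCDHGB6 (95.3% over 253 bp and 96.3% over 322 bp). Reads at these 4 promoters may be split with the copy, so their levels are uncertain.

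The promoter windows show the short element that the genes share. RefSeq windows on GRCh38.p14, from 250 bases before to 50 bases after a gene's start, matched 47 of the 53 genes. One of the most common 8-base words was taken for each subcluster after the windows were seen: ATGTCGCT in PCDHA (9 of 13 genes), GGTGGCGC in PCDHB (13 of 14) and GCCGCTGT in PCDHG (11 of 20). In PCDHA and PCDHB an overlapping word, GATGTCGC or GTGGCGCT, was in as many genes. Over both strands these words occur in 0.23%, 2.23% and 1.63% of the 35116 RefSeq windows. GGTGGCGC can overlap the CTCF consensus and, in the PCDHB windows printed, is followed by a T that completes CGCT. Windows of 30 bases around the word, capitals marking it, are shown for the promoters whose word lies inside their interval, so that the sequence can be set beside the values. The words of PCDHB14, PCDHGA7 and PCDHGB5 lay outside their intervals and are not shown.
PCDHA8 (chr5:140841131-140841160, plus strand): gaagccacatgATGTCGCTgtctaccaaga
PCDHA10 (chr5:140855842-140855871, plus strand): aaagccaccggATGTCGCTgtcgtccacaa
PCDHB8 (chr5:141177777-141177806, plus strand): tgaggacccgtGGTGGCGCtgcaggataag
PCDHB13 (chr5:141213865-141213894, plus strand): tgaggacgcgtGGTGGCGCtgcaggataag
PCDHB15 (chr5:141245314-141245343, plus strand): agacaacgcatGGTGGCGCtgcaggctaag
PCDHGB1 (chr5:141350028-141350057, plus strand): aacctctgggcGCCGCTGTcgaccaaaagg
PCDHGC3 (chr5:141475883-141475912, plus strand): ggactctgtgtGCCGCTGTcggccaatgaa
PCDHGC4 (chr5:141484955-141484984, plus strand): tgagcccgggaGCCGCTGTctgccaatcgg

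The core CGCT, within 100 bases before the start and on the gene's strand, was in 44 of the 47 genes (93.6%), against 28.1% of all RefSeq windows. On both strands the shares were 93.6% and 44.8%. CGCT was searched because the words above, picked from these same windows, share it, so a high share was built in. A gene counted if any of its windows held the core, whereas the share of all RefSeq windows is per window. These shares are thus a description and not a test. These 3 promoters lack their subcluster's word and still hold the letters CGCT there, as does PCDHGB3 (141370216 to 141370219), which is not printed. Capitals mark the last CGCT before the start, which need not be the shared element. The PCDHGB7 stretch also occurs at PCDHGB6 (141407951 to 141407980), after that gene's own word (141407938 to 141407945).
PCDHA11 (chr5:140868886-140868915, plus strand): aggcgcaaggtgtCGCTctttacttggtgg
PCDHGB7 (chr5:141417610-141417639, plus strand): agtgcagagcaagCGCTgacgccggggatc
PCDHGA11 (chr5:141420975-141421004, plus strand): gggctctaggcgcCGCTgctcaccaatcag

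The word occurred in promoters with an interval and in those without one. In PCDHA it was in 2 of 3 promoters with an interval and 7 of 10 without. The counts were 4 of 4 and 9 of 10 in PCDHB, and 5 of 9 and 6 of 11 in PCDHG. A match is a description of the sequence and not a bound site.

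The CTCF consensus, searched on both strands, was found with no mismatch in 3 of the 28 intervals (10.7%, against 4.8% of all intervals). Allowing 1 mismatch left the protocadherin count at 3, against 18.4% of all intervals. None of the 3 was a promoter, and all 3 exact matches were on the minus strand, opposite to the direction in which the protocadherin genes are read. The gap site, nearly a palindrome, also matched on the plus strand with 1 mismatch, so its letters do not fix an orientation. They lay in the gap between PCDHA and PCDHB, on the PCDHG constant exon (the untranslated part of the last exon) and in the downstream flank inside DIAPH1, which encodes an actin-nucleating formin. They are printed on the minus strand, with the matched bases in capitals, because their CTCF values are among those compared below.
PCDHA-PCDHB gap (chr5:141041362-141041391, minus strand): ctcatctgCCACCAGGTGGCAGgtggatcc
PCDHG constant exon (chr5:141512493-141512522, minus strand): ggctatggCCACTAGGGGGCGCactgggga
downstream flank in DIAPH1 (chr5:141524884-141524913, minus strand): atgctcagCCAGCAGGTGGCGCtgggagca

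Matches near the gene starts were on the plus strand. Consensus matches with at most 1 mismatch lay within 1 kb of the start of 9 genes, 8 of PCDHA and PCDHB9, and all 9 were on the plus strand. In the 8 PCDHA genes (PCDHA4 to PCDHA8, PCDHA10, PCDHA12 and PCDHA13) the match lay in the variable coding exon, 590 to 627 bases after the start. None of the 9 was inside an interval, also not at PCDHA8 and PCDHA10, whose intervals lay at the start itself. The matches of PCDHA4, PCDHA8 and PCDHA10 are printed to show how alike they are and that they lie on the other strand from the exact matches above.
PCDHA4 (chr5:140807636-140807665, plus strand): ctcggtttCCACTAGAGGGCGCctcggatg
PCDHA8 exon (chr5:140841770-140841799, plus strand): ctcggtttCCGCTAGAGGGCGCgtccgatg
PCDHA10 exon (chr5:140856494-140856523, plus strand): ctcgatttCCACTAGAAGGCGCatctgatg

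Depth and cell identity were checked first. Total counts over all intervals, in M (1000000 counts), were 3.33 to 4.51 M for CTCF in vehicle and 2.84 to 2.96 M in sorbitol. They were 1.19 to 2.30 M and 1.22 to 1.42 M for RAD21, 3.34 to 3.82 M and 2.34 to 2.57 M for YAP1, and 6.54 to 6.56 M and 7.81 to 8.84 M for H3K27ac. For a further check, 388 intervals were set aside as dominant. They lay on mitochondrial DNA, on contigs outside the main chromosomes or in the YAP1 gene, or took more than 0.1% of a library. Without them the CTCF totals were 2.22 to 3.36 M in vehicle and 1.22 to 1.28 M in sorbitol. Values are therefore given as counts and as CPM, the counts scaled to 1000000 per library after trimmed-mean (TMM) scaling. Of 5 genes expected to be marked in HEK293, VIM had 152 and 2.84 CPM of H3K27ac in vehicle at its 2 intervals. KRT18 had 47.5 CPM and GATA3 15.7 to 42.1 CPM over 6 intervals, but NEFM only 5.51 and 6.18 CPM and INA 0.649 CPM. Of 5 genes expected to be unmarked, PTPRC, CD3E, ALB and HBB had no interval. INS had 9.82 CPM, more than NEFM or INA, so the lists were not fully separated.

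CTCF in vehicle was uneven over the 28 intervals, and the stretches with no interval, PCDHA1 to PCDHA7 among them, give no value. The constant exon and 3 of the 4 flank intervals had the most CTCF per kb of interval. PCDHGB7 came next at 26.8 CPM per kb, and all other promoters were lower. PCDHGA11 was at 18.7 and the remaining PCDHG promoters at 2.19 to 11.6 CPM per kb. That was no higher than the 8.01 to 12.7 of PCDHA and 7.06 to 11.7 of PCDHB. Per kb of interval, the 28 intervals ranged from the 23.6th to the 98.8th percentile of all intervals, with a median at the 68.6th. After sorbitol 6 of the 16 tested intervals were called for CTCF, 37.5% against 40.2% of all tested intervals. The constant exon was called higher. The 5 called lower were 3 PCDHG promoters, an interval inside PCDHB and another in the flank. All 5 passed the filter on low counts through vehicle only, and further limits are given at each.

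**Figure D1:**
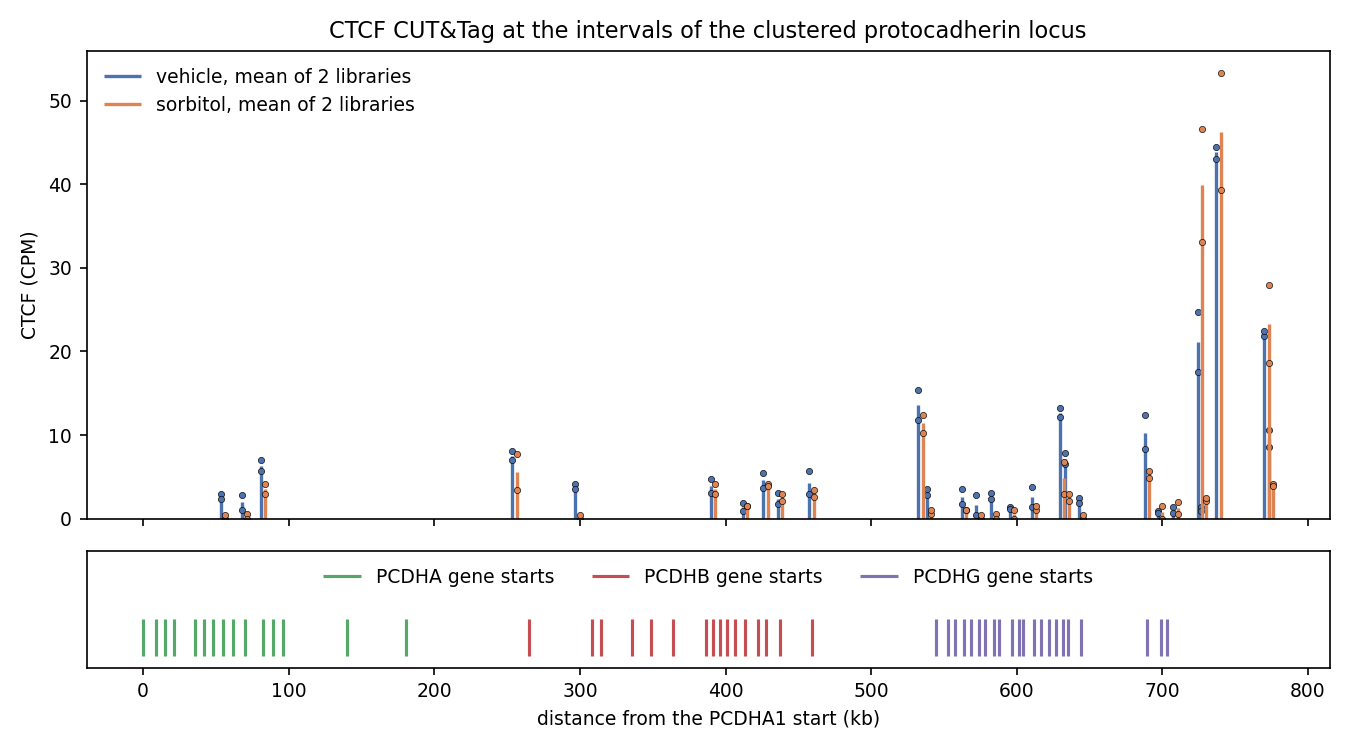
CTCF CPM (vertical axis) at each of the 28 intervals against distance from the PCDHA1 start in kb (horizontal axis), with bars for the mean of 2 libraries and points for each library; the lower strip marks gene starts. In vehicle the highest bars are in the downstream flank, and in sorbitol the constant exon stands at a mean of 39.9 CPM.

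The test was edgeR's quasi-likelihood test on counts, with p-values adjusted by Benjamini-Hochberg over all tested intervals of the target. A call is an adjusted p under 0.05. For CTCF 16 of the 28 intervals passed the filter on low counts, which the other 12, with at most 19 counts in a library, did not. Of these 16, 6 were called, 1 higher and 5 lower in sorbitol, which is 37.5%, against 40.2% of the 39261 tested intervals (19.5% higher and 20.7% lower). The share called was thus close to that of the whole table. Of the 16, 11 passed the filter through their vehicle libraries only and 0 through sorbitol only, which favours lower values in sorbitol, so their direction is given only as a description. The median log2 fold change was -0.66 for the 16 and -0.06 for all tested intervals, and with GC correction it was 0.05 and -0.13. At an unadjusted p under 0.05 there were 8.

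The higher interval was the PCDHG constant exon, the only interval over an exon that all 22 PCDHG genes share. Its CTCF counts were 159 and 74 in vehicle and 64 and 95 in sorbitol, or 24.7 and 17.5 CPM against 33.1 and 46.6 CPM. Both sorbitol libraries were above both vehicle libraries after scaling, and the vehicle library with the most counts was the deepest one. The log2 fold change was 0.90 (SE 0.23, adjusted p 0.0033 by edgeR's quasi-likelihood test). It depended on scaling: the change was 0.36 (adjusted p 0.23) after correction for GC content, which was 63.8% here, and -0.09 with total counts as library size. Without vehicle replicate 2 or sorbitol replicate 2 it was 0.68 or 0.63 and was not called.

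In PCDHG, 3 variable promoters were lower. PCDHGB7, a B-type variable gene, had 85 and 51 CTCF counts in vehicle and 13 and 6 in sorbitol, or 13.2 and 12.1 against 6.73 and 2.94 CPM. The vehicle libraries lay close together and both sorbitol libraries were below them. The log2 fold change was -1.40 (SE 0.42, adjusted p 0.011 by edgeR). Its copy near PCDHGB6 makes the level uncertain, and the call was lost without vehicle replicate 1 or sorbitol replicate 2.

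PCDHGA11, the A-type gene next to it, had 42 and 33 counts against 4 and 6, or 6.52 and 7.81 against 2.07 and 2.94 CPM. The groups did not overlap, and the log2 fold change was -1.49 (SE 0.55, adjusted p 0.034 by edgeR but 0.089 by DESeq2). With GC correction it was -0.80 and was not called (adjusted p 0.29), and the call was also lost when vehicle replicate 1, vehicle replicate 2 or sorbitol replicate 1 was left out (-1.64, -1.37 and -1.26). PCDHGB3 had 15 and 13 counts against 1 and 0, or 2.33 and 3.07 CPM against 0.517 and 0. Nearly all of its reads were in vehicle. From the summed counts of 28 and 1 it was 10.4-fold lower, with an exact (Clopper-Pearson) 95% interval of 1.72 to 426 that covers counting error only. The log2 fold change was -3.23 (adjusted p 0.023 by edgeR), and -6.52 or -2.30 without sorbitol replicate 1 or 2. Its call was lost with DESeq2 (adjusted p 0.082), and in edgeR with replicate number as a block (0.13), that block with GC correction (0.20) and 1 fit over all 16 libraries (0.089). Without either vehicle replicate PCDHGB3 was not tested. All 3 of these promoters passed the count filter through vehicle only.

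The other lower intervals were no promoters. One inside PCDHB, at 141084440 to 141084759, had 27 and 15 CTCF counts against 0 and 1. Its reads were almost all in vehicle, at 4.19 and 3.55 CPM. It was 15.6-fold lower from the summed counts (exact 95% interval 2.66 to 632, adjusted p 0.0064 by edgeR, lost without either vehicle replicate), and it too passed the filter through vehicle only. One in the downstream flank beside the DIAPH1 starts, at 141560798 to 141561039, had 68 and 36 counts against 8 and 8, or 10.6 and 8.52 against 4.14 and 3.93 CPM. The groups were apart, and the log2 fold change was -1.25 (SE 0.44, adjusted p 0.029 by edgeR but 0.088 by DESeq2). That call was lost whichever library was left out (-1.09 to -1.39), and this interval also passed the filter through vehicle only.

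Below the call, PCDHGC3, the C-type promoter with the most CTCF, had 80 and 35 counts against 11 and 10, or 12.4 and 8.28 against 5.69 and 4.91 CPM. Vehicle was the higher in both libraries, and the log2 fold change was -0.98 (SE 0.42, adjusted p 0.064 by edgeR). With no count filter it was called (adjusted p 0.028), as was PCDHA8 (adjusted p 0.027). That setting called 8 of the 28, 1 higher and 7 lower, against 23.5% of the intervals tested (9.13% higher and 14.4% lower). PCDHA8 had 19 and 10 counts against 0 and 1, almost all in vehicle. PCDHGC4, the other C-type promoter with an interval, had 6 and 3 counts against 0 and 3 and was not tested.

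The PCDHA-PCDHB gap interval, in the gap that holds HS5-1, had 45 and 34 CTCF counts against 15 and 7, or 6.98 and 8.04 against 7.76 and 3.43 CPM. One sorbitol library lay between the vehicle ones and the other below them, and the log2 fold change of -0.42 (SE 0.46, adjusted p 0.48 by edgeR) did not pass the test. The DIAPH1 interval with the exact consensus, at 141524647 to 141525342, had 287 and 182 counts against 103 and 80, or 44.5 and 43.0 against 53.3 and 39.3 CPM. It was the strongest CTCF interval of the locus in vehicle, its groups overlapped, and its log2 fold change was 0.07 (SE 0.18, adjusted p 0.76). So of the 3 intervals with an exact consensus 1 rose and the other 2 did not pass the test, while of the 3391 tested intervals with one across the genome 15.3% rose and 17.4% fell.

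**Figure D2:**
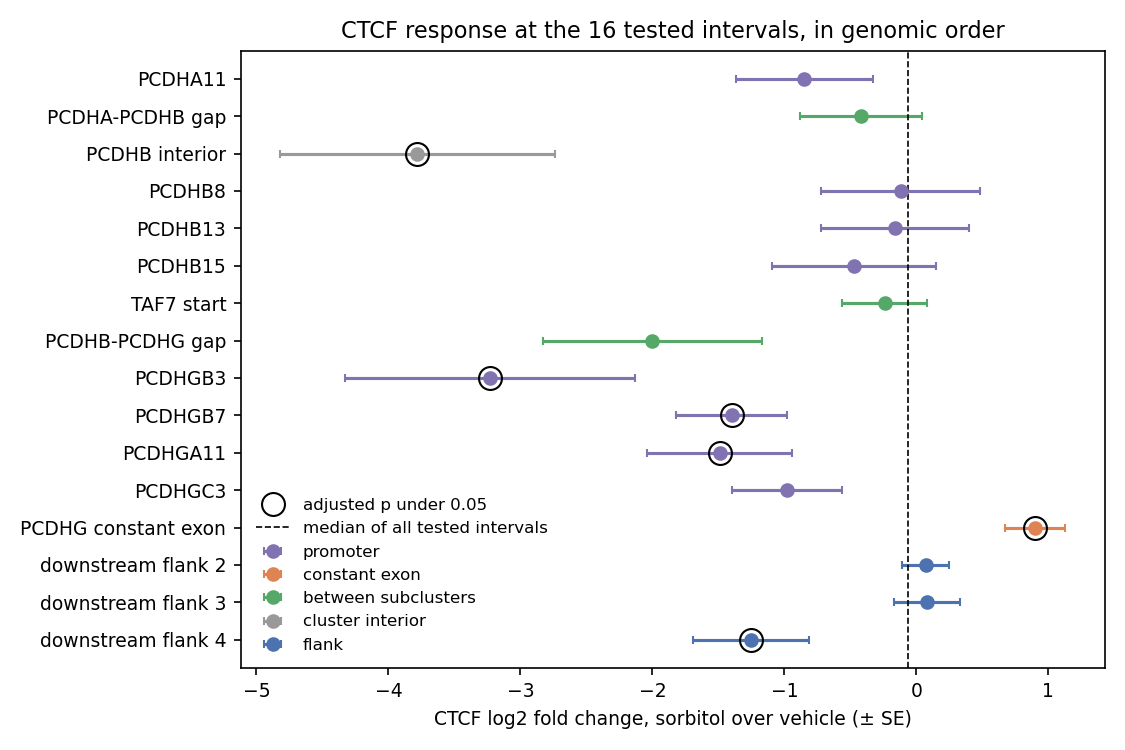
CTCF log2 fold change of sorbitol over vehicle (horizontal axis, bars are SE) for the 16 tested intervals in genomic order (vertical axis), coloured by place, with calls circled; downstream flank 2, 3 and 4 start at 141524647, 141557720 and 141560798. The constant exon at 0.90 is the only circled point to the right of 0, and the dashed line is the median of all tested intervals at -0.06.

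The 3 subclusters can be set side by side as sums. Summed over promoters, PCDHG had 45.2 and 42.8 CPM of CTCF in vehicle and 18.1 and 15.7 CPM in sorbitol. PCDHA had 11 and 10.9 against 4.66 and 3.43 CPM. Both sets were lower in both sorbitol libraries. PCDHB had 12.4 and 20.8 CPM against 14.5 and 14.7 CPM, so its sorbitol libraries lay between the vehicle ones. Its tested promoters PCDHB8, PCDHB13 and PCDHB15 had log2 fold changes of -0.12, -0.16 and -0.47, none of which passed the test.

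Ratios within a library do not depend on how libraries are scaled. The ratio of PCDHB to PCDHG promoter reads was 0.275 and 0.486 in vehicle and 0.8 and 0.938 in sorbitol, a log2 change of 1.24. All sorbitol values were above all vehicle values, and the exact permutation p was 0.33, the smallest that 2 libraries against 2 allow. That of PCDHA to PCDHG was 0.244 and 0.254 against 0.257 and 0.219, with a log2 change of -0.07. The ratio of the constant exon to all 18 promoters was 0.360 and 0.235 in vehicle and 0.889 and 1.38 in sorbitol, a log2 change of 1.93 (exact permutation p 0.33). The promoters in that ratio were themselves lower: the downstream flank to the same promoters went from 1.14 and 1.01 to 2.10 and 2.17, a log2 change of 0.99 (exact permutation p 0.33). Leaving out a library gave 1.61 to 2.24 for the constant exon ratio and 0.83 to 1.66 for that of PCDHB to PCDHG. These ratios were chosen after the values were seen. The median GC content was 37.6% for PCDHA, 47.1% for PCDHB and 52.9% for PCDHG promoters, and its part in the ratios was not tested.

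**Figure D3:**
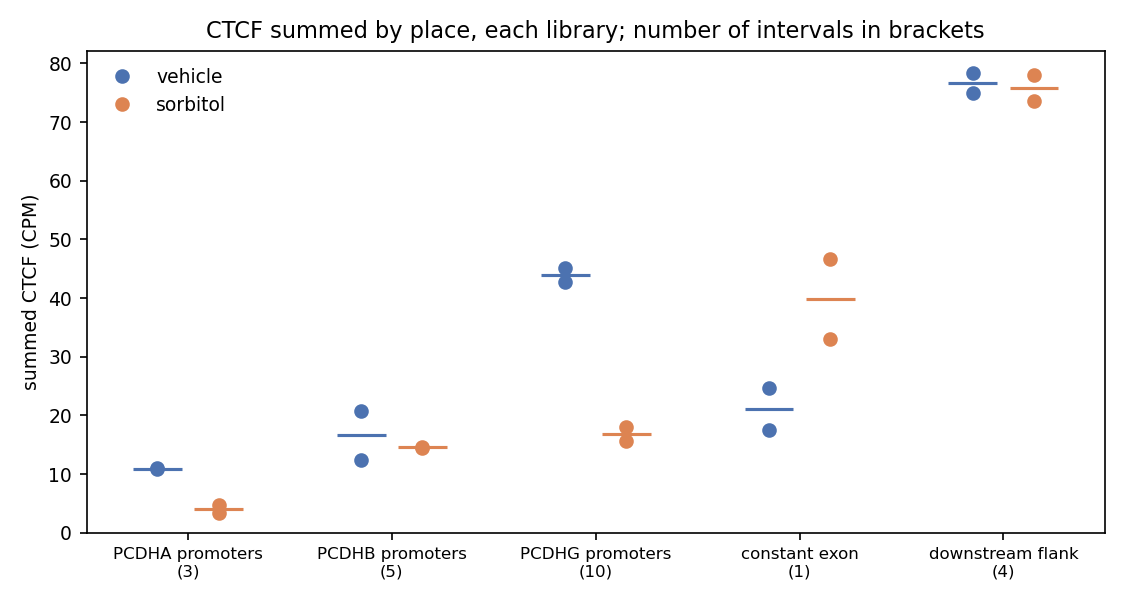
Summed CTCF CPM (vertical axis) by place in the locus (horizontal axis), each point a library and each bar the mean of 2; the number of intervals is in brackets. PCDHA and PCDHG promoters are lower in both sorbitol libraries, PCDHB promoters overlap, and the constant exon is higher.

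The promoters of the table as a whole had a median on the other side of 0. The 14723 tested CTCF intervals within 1 kb of a protein-coding start had a median log2 fold change of 0.48, with 30.5% called higher and 8.76% lower. The 8 tested protocadherin promoters had a median of -0.92, with none called higher and 3 lower, 7 of the 8 having passed the filter through vehicle only. GC correction lowered PCDHGC3 from -0.98 to -1.10 (adjusted p 0.048), raised the others and turned PCDHA11, PCDHB8, PCDHB13 and PCDHB15 positive, at 0.14, 0.35, 0.48 and 0.29. None of those 4 passed the test in either fit. A GC-corrected median over all protein-coding promoters is not given here, so the promoter medians above compare the uncorrected fit only. The corrected fit also called 6 of the 16, but 2 higher and 4 lower, against 31.2% of all tested intervals (13.9% higher and 17.2% lower). Its 2 higher intervals were those in DIAPH1 at 141524647 (0.49, adjusted p 0.037) and at 141557720 to 141558301 (0.74, adjusted p 0.026), and its 4 lower were the PCDHB interior, PCDHGB3, PCDHGB7 and PCDHGC3. With total counts as library size 13 of the 16 tested intervals were called, all lower, against 53.6% of all tested intervals called lower. That scaling moved the median of all tested intervals from -0.06 to -1.04, so the constant exon at -0.09 stayed above it.

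RAD21 was too shallow here to test. No interval passed the count filter, the highest count in a library being 20 in vehicle and 8 in sorbitol, and 4.79% of the 17011 intervals tested elsewhere were called (3.34% higher and 1.45% lower). The constant exon had 13 and 10 RAD21 counts in vehicle and 0 and 5 in sorbitol. PCDHGC3 had 20 and 4 against 7 and 4, and PCDHGB7 18 and 0 against 3 and 1. The vehicle replicates themselves were far apart at both promoters. With no count filter 0 of 25 intervals were called, against 1.81% of all those tested. In that fit 1, the last flank interval, had an unadjusted p under 0.05 by edgeR (8 and 4 counts against 0 and 0). A difference in cohesin at these promoters was therefore not detectable at this depth.

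The difference between the CTCF and RAD21 responses was tested at 15 intervals by an edgeR interaction and 0 were called (2 at an unadjusted p under 0.05, against 0.83% called of all tested, 0.127% with RAD21 the higher and 0.704% with RAD21 the lower). At the constant exon the RAD21 log2 change minus that of CTCF was -2.00 (adjusted p 0.31).

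YAP1 signal was also low. It passed the filter at the TAF7 start and at PCDHGC3, and 0 of these 2 were called by edgeR, DESeq2 or at an unadjusted p under 0.05 by edgeR, against 6.83% of tested intervals (5.34% higher and 1.49% lower). TAF7, a subunit of the general transcription factor TFIID, is a neighbour that starts between PCDHB and PCDHG. It had 25 and 26 YAP1 counts in vehicle and 6 and 0 in sorbitol. Its log2 fold change was -1.15 (SE 0.79, adjusted p 0.45 by edgeR). PCDHGC3 had 33 and 19 against 2 and 6. There the log2 fold change was -0.67 (SE 0.70, adjusted p 0.64). Raw counts were lower in sorbitol at both, library totals were lower too, and the scaled sorbitol libraries spread widely. The interval between TAF7 and PCDHG, among the 3 highest in YAP1 per kb inside the locus, had 7 and 4 counts against 0 and 2. The constant exon had 6 and 2 YAP1 counts in vehicle and 7 and 6 in sorbitol, or 0.973 and 0.395 against 4.17 and 5.08 CPM. It did not pass the filter, and with no filter its log2 fold change was 2.24 (unadjusted p 0.022, adjusted p 0.26 by edgeR).

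H3K27ac was all but missing from the PCDHA and PCDHB promoters and from most PCDHGA and PCDHGB promoters. No library had more than 5 counts at any of the 8 PCDHA and PCDHB intervals. The same held at PCDHGB1, PCDHGB2, PCDHGB3, PCDHGA7, PCDHGB5 and PCDHGA12. PCDHGB7 had 9 and 11 counts in vehicle and 7 and 2 in sorbitol, and PCDHGA11 had 13 and 5 against 6 and 4. The gap interval had 0 and 0 in vehicle and 0 and 2 in sorbitol. The mark passed the count filter only at the TAF7 start, at the C-type promoters PCDHGC3 and PCDHGC4, inside the 3' part of PCDHG and in the flank. Of 9 tested intervals 2 were called, both lower, which is 22.2%, against 23.1% of the 56601 tested intervals (8.59% higher and 14.5% lower).

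PCDHGC3 was the protocadherin promoter with the most H3K27ac. It had 81 and 72 counts in vehicle and 54 and 58 in sorbitol, or 13.1 and 11.8 against 5.83 and 7.21 CPM. Both sorbitol libraries were well below both vehicle ones. The log2 fold change was -0.93 (SE 0.24, adjusted p 0.0036 by edgeR), and it was -0.77 and not called without sorbitol replicate 1. In 1 fit over all 16 libraries the PCDHGC3 change was -0.78 and was not called (adjusted p 0.23 by edgeR). PCDHGC4 had 18 and 19 against 13 and 16 counts, or 2.90 and 3.11 against 1.40 and 1.99 CPM. Its libraries did not overlap either, but the log2 fold change of -0.83 (SE 0.47, adjusted p 0.21) did not pass the test.

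The TAF7 start had 112 and 119 H3K27ac counts in vehicle and 53 and 35 in sorbitol, or 18.1 and 19.5 against 5.72 and 4.35 CPM. The replicates lay close together within each group and the groups were far apart. The log2 fold change was -1.88 (SE 0.23, adjusted p 3.4e-08 by edgeR), and it passed in 15 of 15 settings. Its CTCF did not pass the test, with 11.8 and 15.4 against 12.4 and 10.3 CPM and a log2 fold change of -0.24 (adjusted p 0.57).

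**Figure D4:**
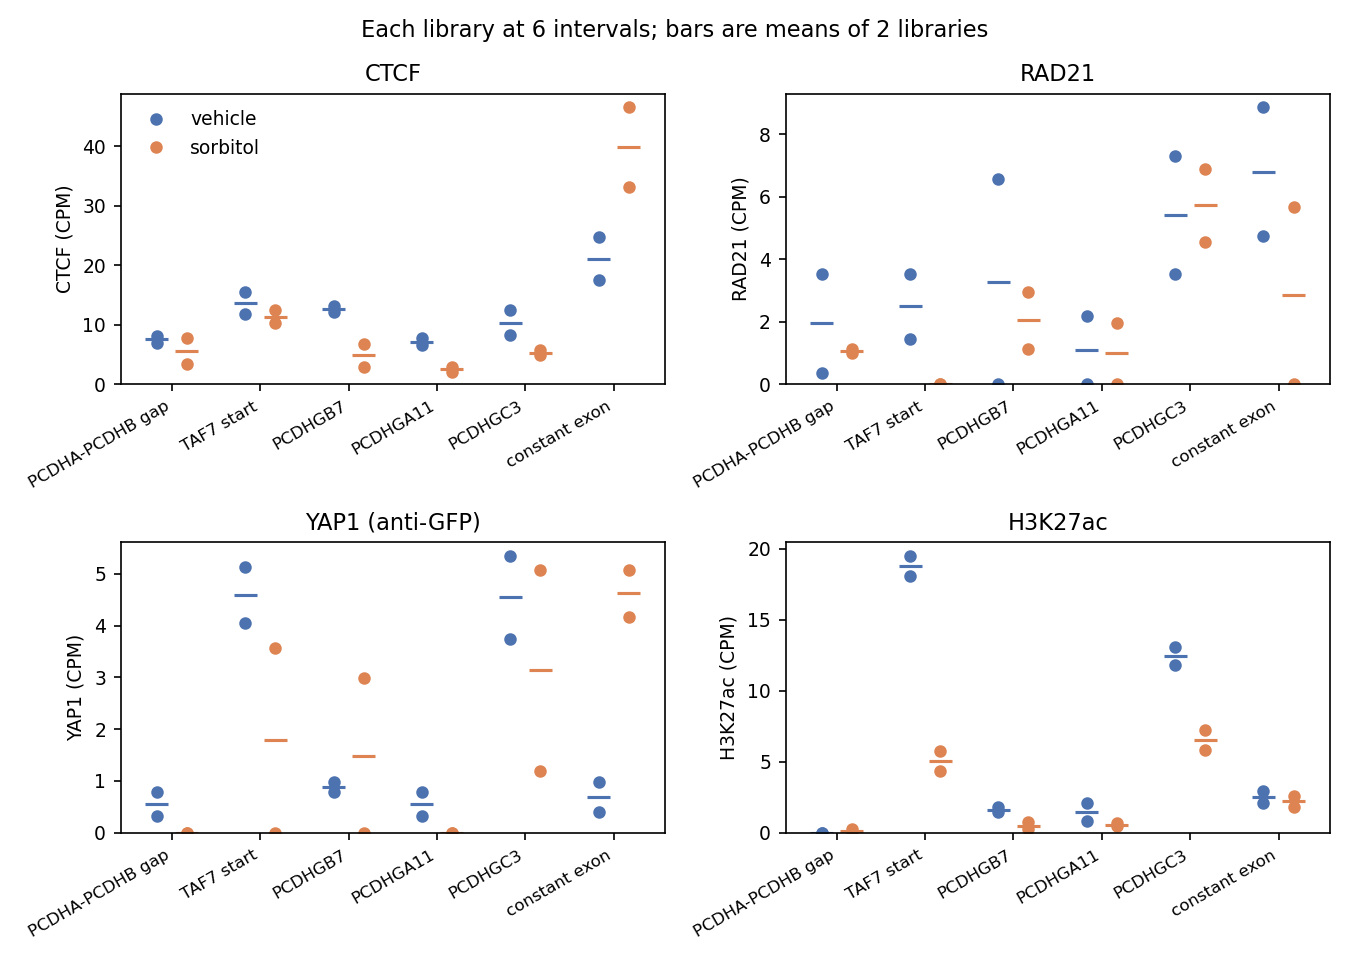
CPM (vertical axes, 1 panel a target) in each library at 6 intervals (horizontal axis), with bars for means of 2 libraries. H3K27ac is seen mainly at the TAF7 start and PCDHGC3 and is lower there in sorbitol, while the constant exon leads in CTCF and reaches 46.6 CPM.

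At the constant exon H3K27ac was low in every library, with 13 and 18 counts in vehicle and 17 and 21 in sorbitol (log2 fold change -0.19, SE 0.47, adjusted p 0.81 by edgeR). The PCDHG interior interval, at 141495179 to 141495475, had 12 and 18 against 19 and 20 counts, with a log2 fold change of -0.11. The first flank interval, at 141514428 to 141514627, had 11 and 15 against 14 and 19, with a change of -0.14. Neither passed the test, and their scaled libraries overlapped.

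The CTCF and H3K27ac responses differed at 2 of 24 tested intervals, 8.33% against 21.6% of the table (12.3% with H3K27ac the higher and 9.3% with H3K27ac the lower). At the TAF7 start the H3K27ac change minus the CTCF change was -1.28 on the log2 scale (SE 0.43, adjusted p 0.023 by edgeR's interaction test), not called with total counts as library size (-0.52, adjusted p 0.37). At the DIAPH1 interval with the exact consensus it was 1.04 (SE 0.37, adjusted p 0.033 by edgeR), not called with GC correction (0.69, adjusted p 0.20) or with scaling to the weakest 25% of intervals (0.24, adjusted p 0.69). Both calls were also lost when certain single libraries were left out, the first without 2 and the second without 6 of the 8. There H3K27ac was 2.90 and 3.11 CPM in vehicle and 4.86 and 5.34 CPM in sorbitol. At PCDHGC3 the difference was 0.42 (SE 0.51, adjusted p 0.60), so its CTCF and H3K27ac changes were not told apart. At the constant exon it was -0.73 (SE 0.49, adjusted p 0.31).

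Other genes of the family and its machinery were followed at their own starts. Of 11 protocadherin genes outside the clusters 10 had intervals, 17 in all. Of the 9 intervals tested for CTCF 2 rose and 1 fell, against 19.5% and 20.7% of all tested. PCDH17, a single-copy protocadherin, went from a mean of 1.10 to 57.3 CPM at 1 of its 2 intervals (log2 fold change 5.75, adjusted p 3.0e-12 by edgeR). The vehicle level there was near the floor, so that interval passed the count filter through sorbitol, which favours a rise. The other PCDH17 interval, at means of 0.625 CPM in vehicle and 1.23 CPM in sorbitol, was not tested. PCDH9 rose by 0.66 (adjusted p 0.0071) and PCDH1, which lies further along chromosome 5, changed by -0.50 (adjusted p 0.012). Of the 15 intervals tested for H3K27ac 4 rose and 2 fell, against 8.59% and 14.5% of all tested. The 18 genes for CTCF, cohesin and regulators of these promoters all had intervals. Of their 32 intervals 25 were tested for CTCF, of which 5 rose and 2 fell, and 30 for H3K27ac, of which 1 rose and 10 fell, beside the same shares of all tested intervals. At the CTCF gene's own start H3K27ac went from 163 to 103 CPM (log2 fold change -0.66, adjusted p 6.4e-09), and at SMC1A, a cohesin core subunit, from 111 to 68.4 CPM (-0.70, adjusted p 8.2e-09).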

How the data were processed

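The deposited table holds raw counts as deposited by the authors, unscaled, for 74404 intervals shared by 16 CUT&Tag libraries. The submitters' processing notes name Trim Galore, FastQC, BWA 0.7.17, SAMtools, Picard, bedtools 2.31.1 and MACS2 2.2.6 and the build hg38; roles, read filters and pooling are not given in the sources used here. All intervals lay on hg38 names and within their lengths. Interval starts count from 0 in the table and from 1 in the text.

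Members and lists were chosen with earlier results of these data known. Each target was fitted with edgeR 4.0.16 (R 4.3.3, robust quasi-likelihood, TMM, filterByExpr with a minimum count of 10) on its 2 vehicle and 2 sorbitol libraries, with Benjamini-Hochberg over all tested intervals. Response differences were interactions. DESeq2 1.42.0 (local dispersion fit) was an alternative. Intervals named were all those called, the 3 highest per kb in vehicle for each target inside the locus, the highest H3K27ac in each gap and the flank, and the C-type promoters; others were named after their values were seen. On simulated counts 2-fold changes in 200 intervals were recovered at 18.5% in the CTCF fit, 1% in RAD21, 7% in YAP1 and 38.5% in H3K27ac. For CTCF these were 200 of 39261 intervals, whereas 40.2% were called in the data. Recovery after the adjustment depends on how many intervals change, so these rates do not give the sensitivity of the fits to the data. Copies were sought with blastn 2.17.0. PCR reads carry no molecular identifiers, so counting intervals cover counting error only. Alternatives were other scalings, filters, a GC correction, a replicate block, leaving out a library and 1 fit over all 16 libraries; for the response differences, GC correction and leaving out a library were chosen after seeing the data. Deviations of libraries with the same replicate number had correlations of -0.009 to 0.006. Counting noise at low counts can hide a pairing, so these values cannot show whether replicate numbers pair libraries.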

Additional observations from a re-analysis of the deposited data

Results flagged for a closer look

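The responses of 2 targets differed at 2 intervals by the test of the difference itself, and neither call held in every setting. At the TAF7 start, between PCDHB and PCDHG, the H3K27ac log2 change minus the CTCF change was -1.28 (adjusted p 0.023 by edgeR, with a range of 7.5e-05 to 0.37 over the alternatives). At the DIAPH1 interval with an exact CTCF consensus, at 141524647 to 141525342 in the flank downstream of PCDHG, it was 1.04 (adjusted p 0.033 by edgeR, with a range of 1.3e-04 to 0.69). The direction was kept at both in all 16 alternatives, the first call was lost in 4 and the second in 9. Neither is at a protocadherin start.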

How the results depend on the processing

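The protocadherin CTCF count of 6 was 3 with DESeq2 (28.9% of all tested intervals called), 13 with total counts as library size (59.0%), 1 of 3 tested with a stricter filter, a mean of 50 counts or more (55.5%), 2 in 1 fit over all 16 libraries (24.0%), and 1 to 3 when a library was left out (22.1 to 31.2%). With the replicate block it was 3 (35.2%), and with the replicate block and GC correction together 2 (26.0%). The block left H3K27ac at 2 (23.4%). The median CTCF change of -0.66 turned to 0.05 with GC correction and 0.04 with the block added, and was -0.10 with the stricter filter. The YAP1 count of 0 was 2 of 2 tested with total counts, where 65.0% of all tested intervals were called. With a library left out the YAP1 change at the TAF7 start ranged from -7.26 to -0.42. The H3K27ac count of 2 was 1 in 1 fit over all libraries (6.43%). With a library left out the H3K27ac change ranged from -2.09 to -1.71 at the TAF7 start and from -1.08 to -0.77 at PCDHGC3. The count of differing CTCF and H3K27ac responses was 1 with no count filter, 1 with the stricter one and 1 with GC correction. In the main fit 21.6% of all tested intervals differed, and the shares in those other settings are not given here. The TAF7 difference lost its call with total counts (-0.52), the stricter filter (-0.93, adjusted p 0.073 by edgeR) and without CTCF sorbitol replicate 1 or H3K27ac sorbitol replicate 2 (-1.26 and -1.08). The DIAPH1 one at 141524647 lost it with the weakest 25% (0.24), no filter (0.96), GC correction (0.69) and without CTCF vehicle replicate 1, CTCF sorbitol replicate 2 or any H3K27ac library (0.76 to 1.00). The block kept both.

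Changes of sign were as follows, and the cause was not tested. For CTCF the PCDHA-PCDHB gap was 0.06 without sorbitol replicate 2 (range from -1.11 when a library was left out), the constant exon -0.09 with total counts, and the TAF7 start 0.01 with scaling to the weakest 25% of intervals and 0.18 with GC correction, with and without the block. With GC correction, without and with the block, PCDHA11 was 0.14 and 0.16, PCDHB8 0.35 and 0.35, PCDHB13 0.48 and 0.48, and PCDHB15 0.29 and 0.28. Scaling to the weakest 25% gave 0.13 at PCDHB8 and 0.09 at PCDHB13. With a library left out PCDHB8 ranged from -0.44 to 0.18, PCDHB13 from -0.45 to 0.10, PCDHB15 from -0.92 to 0.02, and the DIAPH1 intervals at 141524647 and 141557720 from -0.15 to 0.28 and from -0.25 to 0.34. Those 2 were -0.91 and -0.90 with total counts, -0.20 and -0.19 without dominant intervals, -0.12 and -0.12 with no filter, -0.11 and -0.10 with the stricter one, and -0.11 and -0.11 in 1 fit over all libraries. PCDHGC3 in YAP1 was 0.05 without sorbitol replicate 1 (from -1.98). For H3K27ac, the PCDHG interior was 0.04 with total counts, 0.03 without dominant intervals, 0.05 with GC correction, 0.06 with the block added, 0.21 without vehicle replicate 2 and 0.04 without sorbitol replicate 1 (from -0.39). The constant exon was 0.07 and 0.06 without those 2 libraries (from -0.45). The first flank interval was 0.01 with either total scaling and 0.11 and 0.17 without those libraries (from -0.47), and the last was -0.34 without vehicle replicate 1 (up to 1.34). With 1 library left in a group, that library is assumed to vary like the other group.

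Of 222 CTCF values of the 16 tested intervals under the alternatives 142 kept direction and call, 36 lost a call, 13 gained one and 31 changed sign. At most 58 H3K27ac counts in sorbitol, 20 RAD21 and 33 YAP1 counts in a library limit the precision at the promoters.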
